A study of Mus musculus with 13 samples.

Results

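Ube2r2, Rnf19a, Wwp1, Rnf20, Cul2 and Usp14, which are 6 genes of the ubiquitin system, were followed in immune cells sorted from mouse tumours. They were taken by name from a table of 56923 gene IDs, and all 6 were found and passed the filter on low counts. Each lies in 1 of 3 genome stretches in which gene names match the counts, on GRCm38 chromosome 4 from 3.55 to 59.80 Mb, chromosome 15 from 9.07 to 38.08 Mb and chromosome 18 from 3.27 to 10.05 Mb. Those stretches hold 1206 IDs.

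The study sequenced RNA of CD45-positive cells from subcutaneous EL4 tumours. EL4 is a mouse T-cell lymphoma line, and lymphoma cells of this lineage can carry CD45 themselves, so the sort need not separate tumour from host cells. The PSGL1_KO group held 6 libraries from tumours of EL4 cells that lack PSGL-1, a selectin ligand of leukocytes. The vector group held 7 libraries from tumours of EL4 cells that received a vector. In both groups 500000 cells were injected into the right flank of mice 6 to 8 weeks old, and tumours were taken about 20 days later. The labels give no strain or sex for the mice, do not say whether the knockout line was 1 clone, and number the replicates without tying each to its own mouse. p-values therefore measure the spread between these libraries, which may be technical. The series concerns the bearing of PSGL-1 on tumour cells on phagocytosis by macrophages, per its title.

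Libraries held 3710817 to 5712566 counts over gene IDs. The number in each deposited file's name starts with 7 in 4 PSGL1_KO and 5 vector libraries and with 3 in 2 PSGL1_KO and 2 vector libraries. What this number stands for is not given in the sources used here, and its first digit was a term of the model. Selplg, the gene of PSGL-1, lies outside the stretches, and its ID had 3 to 63 counts in PSGL1_KO libraries and 11 to 53 counts in vector libraries, so it could not check the labels. Ptprc, the gene of CD45, lies outside them too. Most IDs lie outside the stretches, so a share over all IDs is one of count rows and not of named genes. Of 10422 IDs tested, 25.8% differed between PSGL1_KO and vector at an adjusted p below 0.05 in edgeR, 13.8% higher and 12% lower in PSGL1_KO. Of these calls 1435 were higher and 1254 lower. The split was 1831 to 543 with library totals alone and 920 to 2590 with scaling on the genes of the stretches. The median log2 fold change of all IDs was 0.12 and -0.21 under those scalings and -0.02 with TMM. Mitochondrial IDs took 34.46% of the gene counts in vector replicate 5 and 10.03% to 17.82% elsewhere. Without that library Rnf19a, Wwp1 and Cul2, the called genes among the 6, kept adjusted p of 3e-06, 0.0095 and 0.029.

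Ubiquitin is passed from an activating enzyme (E1) to a conjugating enzyme (E2), and a ligase (E3) then places it on a chosen protein. RING ligases bring the charged E2 to the substrate, HECT ligases first take ubiquitin onto a cysteine of their own, and RING-between-RING ligases combine both steps. Cullins are scaffolds that hold a RING subunit and an exchangeable substrate receptor. Deubiquitinases remove the tag, some of them on the proteasome, which degrades tagged proteins. In lymphocytes such enzymes set the lifetime of receptors and signalling proteins.

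Coding sequence is shown for 3 of the genes, because base composition went with a difference between libraries that is described below. That description uses whole transcripts, whose GC content differs from that of the bases shown here. The first 90 coding bases are given 5′ to 3′ from GENCODE M21 transcripts, with G and C in capitals. For Ube2r2 they lie at chr4:41136070-41136159 on the plus strand, with a GC content of 60.0%. Those of Rnf20 lie at chr4:49633282-49633371 on the plus strand, with 48.9%. Those of Wwp1 lie at chr4:19673275-19678414 on the minus strand, where an intron splits them, with 42.2%.
Ube2r2: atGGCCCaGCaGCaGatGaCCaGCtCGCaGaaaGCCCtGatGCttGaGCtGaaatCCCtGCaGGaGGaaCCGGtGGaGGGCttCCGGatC
Rnf20: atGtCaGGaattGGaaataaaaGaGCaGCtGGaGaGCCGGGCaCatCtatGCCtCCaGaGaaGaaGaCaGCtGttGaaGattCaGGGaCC
Wwp1: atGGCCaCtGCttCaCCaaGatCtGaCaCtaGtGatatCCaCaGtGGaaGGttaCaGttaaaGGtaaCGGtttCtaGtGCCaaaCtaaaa

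Among the 6 genes, the ligase gene Rnf19a was lower in PSGL1_KO, while the ligase gene Wwp1 and the scaffold gene Cul2 were higher. Rnf20, Ube2r2 and Usp14 did not pass the test. With group as the only term 0 of the 6 were higher and 1, Rnf19a, lower, against 9.02% and 5.49% of all IDs. Within file number 7, 1 was higher and 1 lower, against 11.2% and 9.63% of all IDs, and within number 3, 3 were higher and 1 lower, against 12.5% and 10.8%. A share of 3 in 6 stands beside the 25.8% called over all IDs and the 40.7% called over the 327 protein-coding genes tested in these stretches and a further one on chromosome 6, which is counted among the stretches from here on. In that last set 33.6% were higher and 7.03% lower in PSGL1_KO. The median log2 fold change (log2FC, PSGL1_KO minus vector) was 0.16 over the 6 genes, -0.02 over all IDs and 0.19 over the protein-coding genes of the stretches.

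Rnf19a encodes a RING-between-RING ligase, also called dorfin (GRCm38 chromosome 15, 36239933 to 36283147). Levels, in CPM (each count as a share of the library total, set to a common scale with TMM factors), ran from 130 over a median of 137 to 229 CPM in PSGL1_KO libraries, against 210, 257 and 369 CPM in vector libraries. All 6 PSGL1_KO libraries lay below the vector median, and the groups overlapped because PSGL1_KO replicate 1, at 229 CPM, exceeded vector replicates 4 and 5, at 220 and 210 CPM. PSGL1_KO replicate 1 carries file number 3, and both vector libraries carry 7. Among libraries of number 7, PSGL1_KO had 130 to 141 CPM and vector 210 to 257 CPM. Among those of number 3, PSGL1_KO had 192 and 229 CPM and vector 304 and 369 CPM. Within either number the groups were therefore apart in the same direction, which 5.1% of all IDs tested also showed. In either direction, 18.6% of all IDs were apart within number 7 and 61% within number 3, which has 2 libraries a group. Rnf19a averaged 159 ± 41.5 CPM (SD, n = 6) in PSGL1_KO and 266 ± 55 CPM (SD, n = 7) in vector libraries. The log2FC was -0.78 ± 0.10 (SE; 95% interval -0.99 to -0.57) with adjusted p = 4.5e-06 in the edgeR quasi-likelihood test. It was -0.84 within number 7 and -0.65 within number 3, with adjusted p of 4.5e-05 and 0.0052, and passed under all 22 alternative settings. The SE within number 3 was 0.19 for each of the 6 genes. Adjusted p within that number therefore rests mostly on a spread shared across genes, not on each gene's own. In sorted bulk RNA, fewer cells of a type and less RNA per cell cannot be told apart.

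Wwp1 encodes a HECT ligase of the NEDD4 family (chromosome 4, 19608303 to 19708993). Its lowest, median and highest levels were 164, 191 and 272 CPM in PSGL1_KO libraries and 126, 136 and 215 CPM in vector libraries. All 6 PSGL1_KO libraries lay above the vector median, and the overlap came from vector replicate 1, at 215 CPM. Libraries of number 7 had 164 to 193 CPM in PSGL1_KO and 126 to 147 CPM in vector, and those of number 3 had 224 and 272 CPM in PSGL1_KO and 158 and 215 CPM in vector. The groups were apart within both numbers, PSGL1_KO above, which 6.93% of all IDs showed. Wwp1 averaged 202 ± 40.9 CPM (SD, n = 6) in PSGL1_KO and 150 ± 30.8 CPM (SD, n = 7) in vector libraries, a log2FC of 0.41 ± 0.10 (SE; 95% interval 0.19 to 0.62) with adjusted p = 0.0053 in edgeR. The call was lost without the file-number term (log2FC 0.43, adjusted p = 0.081), within number 3 alone (0.44, adjusted p = 0.071) and with scaling on the genes of the stretches (0.21, adjusted p = 0.082). Over all 22 alternatives the adjusted p ran from 0.00097 to 0.082. Its exons share 46 bases with Gm12353 on the other strand, whose ID had 17 to 80 counts.

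Rnf20, a RING ligase that with Rnf40 places ubiquitin on histone H2B (chromosome 4, 49632006 to 49656887), was nearly even across the libraries. PSGL1_KO libraries had 343 to 459 CPM with a median of 371 CPM, and vector libraries 360 to 407 CPM with a median of 384 CPM. The vector range lay wholly inside the PSGL1_KO range. The log2FC was -0.02 (95% interval -0.21 to 0.17) with adjusted p = 0.9 in edgeR. It was -0.22 with adjusted p = 0.038 when scaled on the genes of the stretches, and its sign turned to 0.11 with library totals alone (adjusted p = 0.49). Over its alternatives the adjusted p ran from 0.038 to 1.0.

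**Figure D1:**
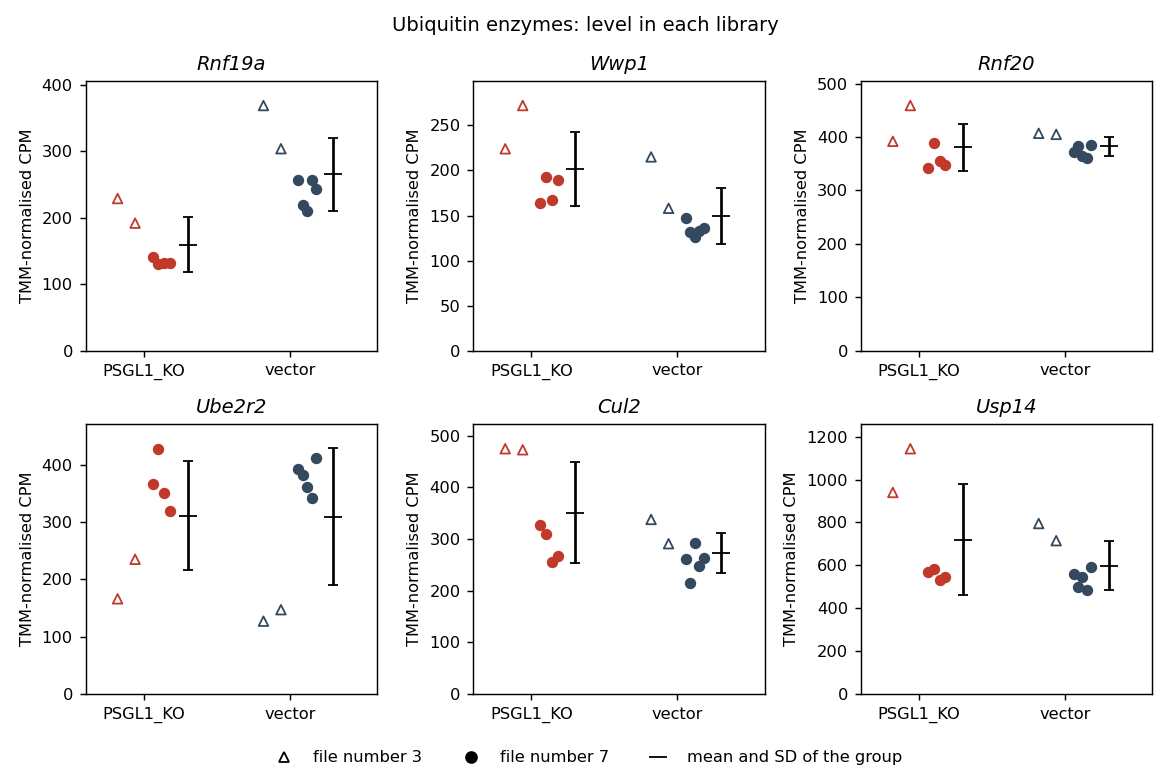
Each panel plots 1 gene in TMM-scaled CPM (vertical axis) for PSGL1_KO and vector libraries, with filled circles for file number 7, open triangles for file number 3, and bars for the group mean and SD. Rnf19a is lower and Wwp1 higher in PSGL1_KO within either file number, while Ube2r2 is split by file number, at 320 to 428 CPM in number 7 and 127 to 235 CPM in number 3.

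Cul2 encodes the cullin of the ligase that uses the von Hippel-Lindau protein to mark hypoxia-inducible factors (chromosome 18, 3382988 to 3436377). Per kilobase of exon its levels were 60.7, 75.5 and 113 CPM per kb (lowest, median, highest) in PSGL1_KO libraries and 51.1, 62.5 and 80.1 CPM per kb in vector libraries. Both PSGL1_KO libraries of number 3, at 112 and 113 CPM per kb, stood above every other library. In number 7 the PSGL1_KO range of 60.7 to 77.5 CPM per kb overlapped the vector range of 51.1 to 69.5 CPM per kb. Means were 83.3 ± 23.3 CPM per kb (SD, n = 6) in PSGL1_KO and 64.7 ± 9.22 CPM per kb (SD, n = 7) in vector libraries, a log2FC of 0.31 ± 0.11 (SE; 95% interval 0.08 to 0.54) with adjusted p = 0.045 in edgeR. The call held in 7 of 22 alternatives, with adjusted p from 0.0024 to 0.36. It was lost within number 7 (log2FC 0.17, adjusted p = 0.32), without the file-number term (0.36, adjusted p = 0.17), with scaling on the genes of the stretches (0.12, adjusted p = 0.36), and when vector replicate 1, 2, 3, 4 or 6, or PSGL1_KO replicate 1, 2, 3 or 4, was left out (adjusted p from 0.058 to 0.13).

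Ube2r2 encodes an E2 of the Cdc34 type that works with cullin ligases (chromosome 4, 41135743 to 41193380). Libraries had 166 to 428 CPM in PSGL1_KO, with a median of 336 CPM, and 127 to 411 CPM in vector, with a median of 362 CPM. Both groups fell into the same 2 levels, high in file number 7 and low in file number 3. The log2FC was 0.14 (95% interval -0.12 to 0.39) with adjusted p = 0.45 in edgeR. Within number 7 the log2FC was -0.05 with adjusted p = 0.79. Within number 3 alone Ube2r2 was higher in PSGL1_KO, with 166 and 235 CPM in PSGL1_KO and 127 and 147 CPM in vector, a log2FC of 0.58 and adjusted p = 0.016. That adjusted p rests mostly on the spread shared across genes. With scaling on the genes of the stretches the log2FC over all libraries was -0.06, and the adjusted p over its alternatives ran from 0.016 to 0.99.

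Usp14 encodes a deubiquitinase that binds the proteasome and trims ubiquitin chains there (chromosome 18, 9993066 to 10045119). PSGL1_KO libraries had 532 to 1144 CPM with a median of 576 CPM, and vector libraries 484 to 795 CPM with a median of 561 CPM. The 4 libraries of file number 3 were the highest, and PSGL1_KO was above vector among them. The log2FC was 0.18 (95% interval -0.04 to 0.41) with adjusted p = 0.22 in edgeR. Within number 7 it was 0.05 with adjusted p = 0.76, and within number 3 it was 0.50 with adjusted p = 0.037. Library totals alone gave 0.31 with adjusted p = 0.026, and scaling on the genes of the stretches -0.01 with adjusted p = 0.95. Exons of Usp14 share 2169 bases with those of Thoc1 on the other strand, whose ID had 1257 to 2705 counts. Whether strand was used in counting was not given, so how reads there were assigned is not known.

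**Figure D2:**
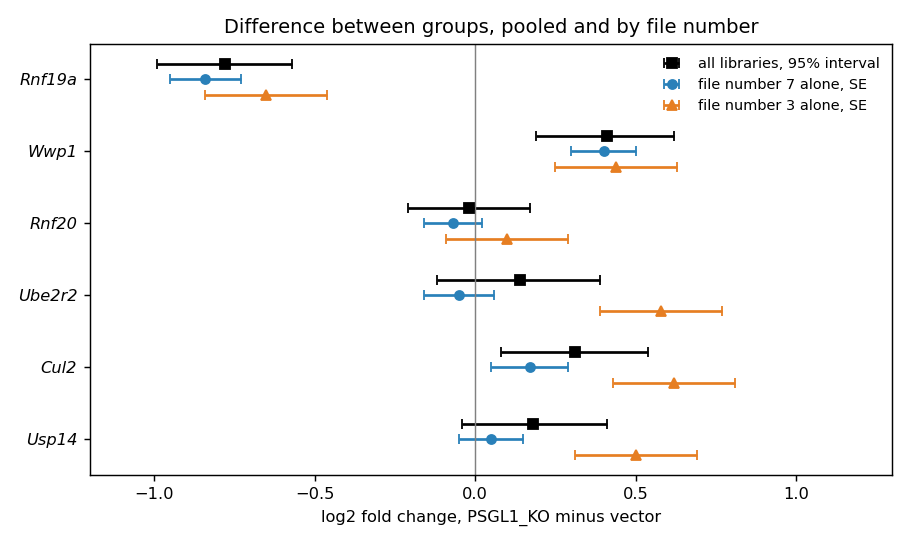
Points give the log2 fold change, PSGL1_KO minus vector, of each gene over all libraries (squares, with the 95% interval) and within file number 7 (circles) or 3 (triangles), with the SE. The SE within number 3 was 0.19 for every gene, mostly a spread shared across genes. Rnf19a lies left of 0 and Wwp1 right of 0 in all 3, while Ube2r2, Cul2 and Usp14 lie nearer to 0 in number 7, at -0.05, 0.17 and 0.05, than in number 3, at 0.58, 0.62 and 0.50.

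The difference between PSGL1_KO and vector was tested against file number for all 6 genes, and in edgeR 0 of 6 differed between the numbers at an adjusted p below 0.05, against 2.11% of all IDs. At an unadjusted p below 0.05, 2 did, a level at which the share of all IDs was not counted. For Ube2r2 the log2FC was lower in number 7 than in number 3 by a difference of -0.59 (95% interval -1.05 to -0.14, adjusted p = 0.14). Usp14 had a difference of -0.41 (-0.80 to -0.02, adjusted p = 0.25), and Cul2 one of -0.41 (-0.84 to 0.01, adjusted p = 0.29). Those of Rnf19a, Wwp1 and Rnf20 were -0.15, -0.01 and -0.13, with intervals that included 0.

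File number went with a larger log2 difference than PSGL1_KO against vector for every one of the 6 genes but Rnf19a, a contrast of sizes that was not tested. With the groups in the model, 5 of 6 differed between numbers 7 and 3 at an adjusted p below 0.05 in edgeR, against 39.8% of all IDs. Ube2r2 was higher in number 7, at a log2 difference of 1.16 ± 0.14 (SE, adjusted p = 3.7e-06). Lower in number 7 were Usp14 at -0.70, Rnf19a at -0.58, Cul2 at -0.50 and Wwp1 at -0.47, with adjusted p from 6.6e-05 to 0.0019. Rnf20 had -0.18 with adjusted p = 0.14.

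Differences between file numbers went along with base composition across the genes of the stretches, though not in strict order among the 6. The longest coding transcript of Ube2r2 had a GC content of 50.5%, the highest of the 6, and Rnf20 followed with 47.9%, Rnf19a with 45.1%, Cul2 with 40.6%, Wwp1 with 39.6% and Usp14 with 39.2%. Across the 327 protein-coding genes tested in the stretches, GC content and the log2 difference between file numbers had a Pearson r of 0.63 and a Spearman rho of 0.62. Genes are not independent replicates, and all share the same 13 libraries, so this is a description. Below 42% GC, 62 genes had a median log2 difference of -0.62, and at 50% GC or more 96 genes had a median of 0.31. Among these 327 genes Ube2r2 was at the 98.2 percentile of the difference and at the 72.8 percentile of GC content. Between GC content and the log2FC of PSGL1_KO minus vector the r was 0.06 and the rho 0.01. The part of base composition in any result of these genes was not tested.

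**Figure D3:**
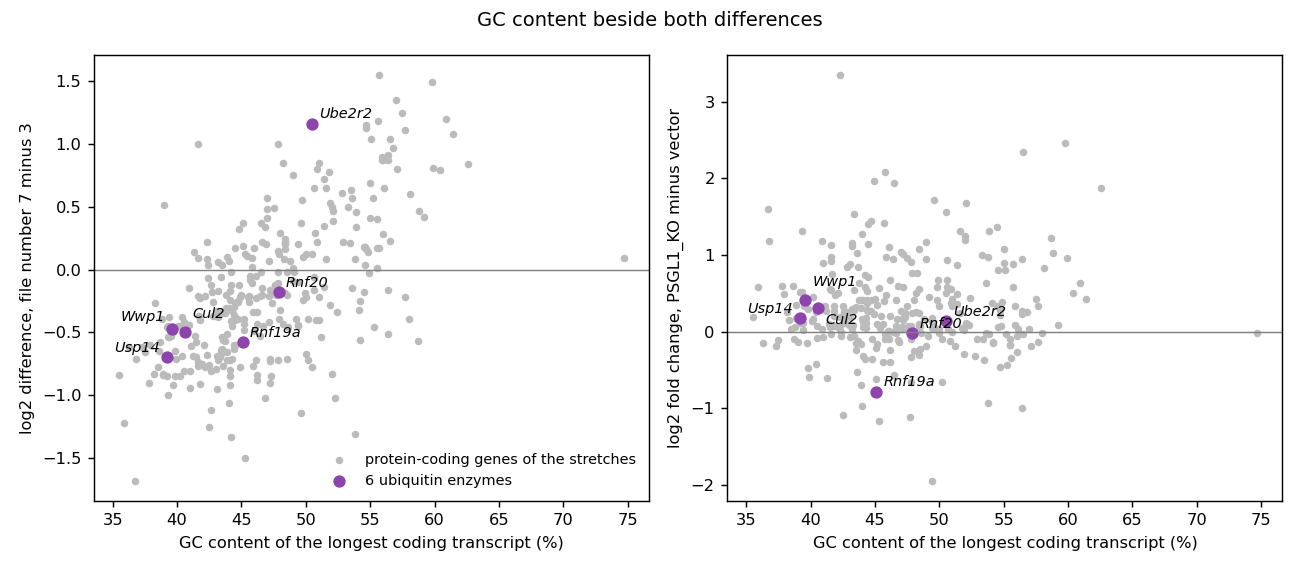
GC content of the longest coding transcript (horizontal axis, percent) is plotted for 327 protein-coding genes (grey) and the 6 ubiquitin enzymes (purple) against the log2 difference between file numbers 7 and 3 (left) and the log2 fold change of PSGL1_KO minus vector (right). The left cloud climbs with GC content (r = 0.63) and the right one does not (r = 0.06).

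Levels of different genes were compared per kilobase of merged GENCODE M21 exons, in CPM per kb. The length of Usp14 includes the 2169 bases shared with Thoc1. In PSGL1_KO libraries the order was Usp14 with 86.2 ± 31.0, Cul2 with 83.3 ± 23.3, Ube2r2 with 74.3 ± 22.7, Rnf20 with 52.2 ± 6.0, Rnf19a with 35.9 ± 9.35 and Wwp1 with 31.2 ± 6.33 CPM per kb (SD, n = 6). In vector libraries it was Ube2r2 with 73.8 ± 28.6, Usp14 with 71.7 ± 13.8, Cul2 with 64.7 ± 9.22, Rnf19a with 59.9 ± 12.4, Rnf20 with 52.5 ± 2.53 and Wwp1 with 23.2 ± 4.78 CPM per kb (SD, n = 7). Neighbours in these orders lay within the larger of their SDs, except Rnf20 above Rnf19a in PSGL1_KO and Rnf20 above Wwp1 in vector. The means pool both file numbers, and the order was not the same within each. In vector libraries the median of Ube2r2 was 91.4 CPM per kb in number 7 and 32.8 CPM per kb in number 3. For Usp14 these medians were 65.4 and 90.5 CPM per kb. The mean of Wwp1 was the lowest per length in both groups, within the spread of Rnf19a in PSGL1_KO. Rnf19a averaged below Rnf20 in PSGL1_KO libraries and above it, within the spread, in vector libraries.

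Other genes of the ubiquitin system came from a list of 610 symbols. In the stretches lay 28 of them, of which 23 passed the filter on low counts. In PSGL1_KO 6 were higher and 1 lower, a share of 30.4% beside the 25.8% of all IDs and the 40.7% of protein-coding genes in the stretches. The median log2FC over the 23 genes was 0.11, against -0.02 over all IDs and 0.19 over those protein-coding genes.

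Otulinl, named for its likeness to the linear-chain deubiquitinase Otulin and thought to lack its activity, rose to 159 ± 14.8 CPM (SD, n = 6) in PSGL1_KO, against 98.5 ± 15.5 CPM (SD, n = 7) in vector libraries. PSGL1_KO libraries had 134 to 180 CPM, all above the vector range of 79.1 to 118 CPM. Otulinl was the 1 list gene whose groups did not overlap over all libraries, as 6.54% of all IDs did (4.14% with PSGL1_KO above and 2.41% below), and 0 of the 6 enzymes did so. Its log2FC was 0.71 ± 0.11 (SE) with adjusted p = 5.5e-05 in edgeR, and it passed under 22 of 22 alternatives. Otulin itself, which lies beside it on chromosome 15, had a log2FC of -0.15 and adjusted p = 0.38.

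Of the other higher list genes 4 are described here. March6, a ligase of the endoplasmic reticulum membrane, averaged 525 ± 109 CPM in PSGL1_KO and 385 ± 52.4 CPM in vector libraries (log2FC 0.42, adjusted p = 0.005). Ufl1, the ligase for the ubiquitin-like protein UFM1, averaged 144 ± 22.5 CPM in PSGL1_KO and 106 ± 26.6 CPM in vector libraries (log2FC 0.43, adjusted p = 0.0049). Trim14, a TRIM protein of antiviral signalling that lacks the RING domain of its relatives, averaged 22.4 ± 8.61 CPM in PSGL1_KO and 15.1 ± 4.19 CPM in vector libraries (log2FC 0.56, adjusted p = 0.024). Fbxo10, an F-box receptor, had 40.8 ± 12 CPM in PSGL1_KO and 33.2 ± 9.28 CPM in vector libraries (log2FC 0.34, adjusted p = 0.042). Of 22 alternatives March6 passed in 20, Ufl1 in 19, Trim14 in 16 and Fbxo10 in 7, and all 4 failed without the file-number term. Their highest adjusted p over the alternatives were 0.062, 0.21, 0.61 and 0.43, in the same order, and the lowest 0.00073, 0.00086, 0.0095 and 0.016. Trim14 was lost without PSGL1_KO replicate 5 or 6 (adjusted p of 0.078 and 0.057). Fbxo10 was lost when vector replicate 1, 2, 5, 6 or 7, or PSGL1_KO replicate 2, 4, 5 or 6, was left out (0.052 to 0.1).

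Ubap2, a ubiquitin-associated protein, was lower, at 287 ± 95.6 CPM (SD, n = 6) in PSGL1_KO and 416 ± 146 CPM (SD, n = 7) in vector libraries. The log2FC was -0.46 ± 0.11 (SE) with adjusted p = 0.0026 in edgeR. It failed without the file-number term (-0.53, adjusted p = 0.19) and within number 3 (-0.29, adjusted p = 0.28), and its adjusted p over the alternatives ran from 2.8e-05 to 0.28. Ubap2 lies 932 bases beyond the end of Ube2r2, and like Ube2r2 it was higher in file number 7, by 1.13 on the log2 scale. The transcript of Ubap2 had a GC content of 54.7%. The 16 list genes not called had log2FC from -0.18 for Sem1, a proteasome subunit, to 0.41 for Vcp, the ATPase that extracts tagged proteins. Vcp averaged 1508 ± 438 CPM in PSGL1_KO and 1104 ± 167 CPM in vector libraries, with adjusted p = 0.064 in edgeR. Its log2FC was 0.16 within number 7 (adjusted p = 0.55) and 0.98 within number 3 (adjusted p = 5.8e-06). Within number 3 its SE was 0.19, the same as for the 6 enzymes, so that adjusted p rests mostly on the shared spread. Of 22 alternatives Vcp passed in 4. Leaving out PSGL1_KO replicate 3 brought Vcp past the threshold (0.55, adjusted p = 0.0085). Skp2, the F-box receptor of a cell-cycle ligase, had a log2FC of 0.23 with adjusted p = 0.12.

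**Figure D4:**
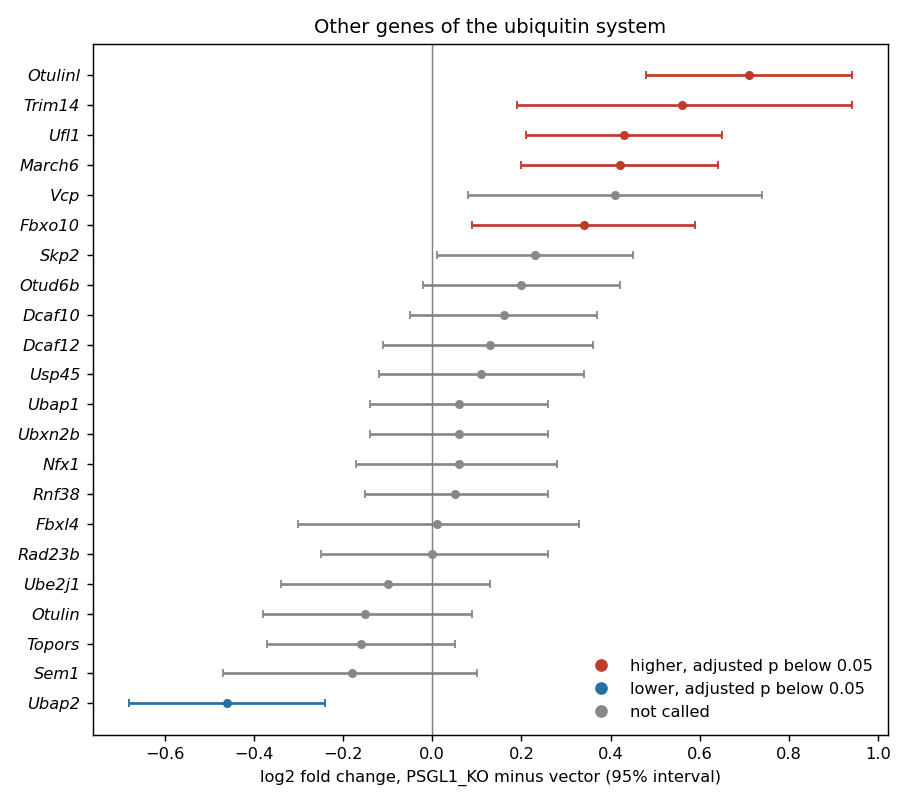
Log2 fold changes, PSGL1_KO minus vector, with 95% intervals for 22 of the 23 tested genes of the ubiquitin list, in red where higher, in blue where lower and in grey where the adjusted p was 0.05 or more. Otulinl is at the top with 0.71 and Ubap2 at the bottom with -0.46.

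The genes with the most similar profiles were sought among the other 326 protein-coding genes of the stretches, by the mean absolute difference between log2 CPM profiles centred on their own means, over 13 libraries. For Rnf19a these were Mios at 0.128 and Grhl2 at 0.152 log2 units, where the median over all candidates was 0.538. For Wwp1 they were Kif5b at 0.083 and March6 at 0.104 (median 0.323). For Rnf20 they were Ripk2 at 0.062 and Mms22l at 0.068 (median 0.298). Ube2r2 was closest to Dap at 0.132 and Grhpr at 0.162 (median 0.666), Cul2 to Invs at 0.106 (median 0.32), and Usp14 to Rab18 at 0.073 and Chmp5 at 0.083 (median 0.343). Among the 6 enzymes themselves Cul2 and Usp14 were closest, at 0.131, and Ube2r2 and Usp14 farthest, at 0.798.

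Markers of cell types in the stretches were set beside these results. They were chosen with earlier results of these data known, so they give no independent view of cell composition. Of all IDs 25.8% were called, and of the protein-coding genes of the stretches 40.7%, 33.6% higher and 7.03% lower. An unadjusted p below 0.05 in edgeR was found for 3884 of 10422 IDs. The 5 markers of the myeloid and B lineages were Lyn, Cd72, Tfec, Atp6v0d2 and Pax5. Of these 4 were higher and 0 lower in PSGL1_KO in edgeR (5 had an unadjusted p below 0.05). Pax5, of the B lineage, was not called, with 7.09 to 18.9 CPM in PSGL1_KO and 3.86 to 12.3 CPM in vector libraries (adjusted p = 0.054). The summed level of the 5 was 518 to 816 CPM in PSGL1_KO and 104 to 235 CPM in vector libraries. Lyn and Cd72 had the highest means of the 5. Of single IDs, 6.54% had groups that did not overlap, and no such share was counted for sums. Of 4 T-lineage markers 1 was higher and 1 lower, with sums of 363 to 557 CPM in PSGL1_KO and 434 to 606 CPM in vector libraries. The higher one, Bach2, reached at most 5.8 CPM in PSGL1_KO libraries. Of 8 stromal markers 2 were higher and 0 lower, 4 having an unadjusted p below 0.05, with sums of 948 to 4455 CPM in PSGL1_KO and 908 to 2432 CPM in vector libraries. Col1a2, not called, alone had 712 to 3978 CPM in PSGL1_KO and 563 to 2123 CPM in vector libraries. The 4 proliferation markers had 0 calls, and sums of 667 to 1205 CPM in PSGL1_KO and 735 to 1346 CPM in vector libraries. The 1 with an unadjusted p below 0.05 was Skp2, which is also in the ubiquitin list. All 21 markers passed the filter. The part of cell composition in the differences of Rnf19a, Wwp1 and Cul2 was not tested.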

How the data were processed

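The authors deposited raw read counts per gene ID, 1 file for each of 13 libraries, with HISAT2, SAMtools, HTSeq and mm10 named in the submitters' processing notes. Tool versions, the annotation release and whether strand was used were not given in the sources used here. The 5 summary rows stayed out of library sizes and tests. Of all reads they held 67.31% to 75.38% without a feature, 7.71% to 13.58% aligned more than once, 3.55% to 5.67% of low quality, 1.05% to 3.47% unaligned and 0.31% to 0.47% ambiguous, and gene IDs received 10.45% to 12.49%. Symbols matched 52073 IDs without their version, and coordinates and exons are those of GENCODE M21 on GRCm38. For all 6 genes the files carry a later ID version than M21, so the exons counted may differ from those used for lengths and overlaps.

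Gene names were used only inside the stretches in which they match the counts, except for Selplg, Ptprc and the IDs summed as mitochondrial. The stretch on chromosome 6 was taken with rounded limits. edgeR 4.0.16 in R 4.3.3 fitted group and file-number digit to all 10422 IDs kept by filterByExpr, with TMM factors and the robust quasi-likelihood test, two-sided, with Benjamini-Hochberg adjustment over all IDs and a threshold of 0.05. DESeq2 1.42.0 and other scalings, filters and library subsets were alternatives. CPM profiles for likeness used a prior count of 1. Named genes were the 6, every list gene called, with the others given by count and range, and the 2 closest profiles of each of the 6. A gene that this rule names is not reported here. Vcp, Sem1, Otulin and Skp2, not called, were named after their values were seen, as were the GC limits of 42% and 50%. The 6 genes, the lists and the cell-type markers were chosen with earlier results of these data known.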

Additional observations from a re-analysis of the deposited data

Results flagged for a closer look

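Among 28 sets of values, those of the 6 enzymes, the 7 called list genes and Vcp in each group, 1 had a library that stood apart by Dixon's criterion, where chance gives about 1 in 20. It was Wwp1 in vector replicate 1, with 215 CPM, against 126 to 158 CPM in the other vector libraries. That library carries file number 3, in which Wwp1 was also higher in PSGL1_KO libraries. Without it the log2FC of Wwp1 was 0.46 with adjusted p = 0.003 in edgeR, within the range of 0.003 to 0.019 over the 13 libraries left out in turn.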

How the results depend on the processing

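Rnf19a kept its direction and its call in all 22 alternatives, with a log2FC from -0.97 to -0.65. DESeq2, run only with the file-number term, called 2 of the 6 enzymes and 1488 of 10422 IDs higher. With group as the only term in edgeR, 940 IDs were higher and 572 lower, 0 of the 6 were higher, and the list had 1 higher and 0 lower. There 3 of the 6 had an unadjusted p below 0.05, as did 2889 of 10422 IDs, and Wwp1 had 0.43 and Cul2 0.36. With factors from the nuclear IDs of the stretches, 920 IDs were higher and 2590 lower, with 0 higher and 2 lower among the 6 and 1 higher and 5 lower in the list. Log2FC were then 0.21 for Wwp1, -0.22 for Rnf20, -0.06 for Ube2r2, 0.12 for Cul2 and -0.01 for Usp14. Relative to the median of all IDs, Rnf19a stayed between -0.77 and -0.76 and Wwp1 between 0.41 and 0.43 under the 4 scalings. With library totals alone 543 IDs were lower, Rnf20 had 0.11 and Usp14 0.31. RLE factors left 1 of the 6 higher, with Cul2 at 0.30, as did no filter beyond 1 count, with Cul2 at 0.32. Over all IDs 1388 of 10422 were higher with RLE factors and 1686 of 31223 with no filter beyond 1 count. Within file number 7, 1 of the 6 was higher and 2 list genes lower, Ube2r2 had -0.05 and Cul2 0.17. Within number 3, 0 list genes were lower, Wwp1 had 0.44, Rnf20 0.10, Ube2r2 0.58 and Usp14 0.50. Leaving out each library gave 1 to 2 higher among the 6 and 1198 to 1553 higher over all IDs. The log2FC was then 0.25 to 0.36 for Cul2 and -0.05 to 0.01 for Rnf20. The causes were not tested.

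Replicate numbers were not taken to pair the libraries, because not every correlation of deviations between same-numbered libraries was above 0.1. The correlations were 0.58, 0.31, -0.04, 0.26, 0.02 and 0.41 for numbers 1 to 6, and same-numbered libraries share their file number. With file number also removed they were 0.01, 0.01, -0.16, 0.04, -0.10 and 0.28. The values for numbers 1 and 2 are equal by construction, because file number 3 has 2 libraries a group. Not every PSGL1_KO library correlated best with its own number. A replicate block gave 1212 higher and 881 lower IDs, 1 higher among the 6 and 3 in the list, with Cul2 at 0.34 and Rnf20 at 0.00.

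The number of libraries, 2 a group in file number 3, limits the values within that number, where tests rest mostly on a spread shared across genes. Apart from Selplg, Ptprc and the mitochondrial IDs, gene names were used only inside the stretches.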
